A study of Mus musculus with 10 samples.

Results

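The genes Bcl11a, Bcl11b, Fezf2, Tbr1, Sox5, Foxp1, Foxp2, Zfpm2, Tle4 and Ldb2 encode transcriptional regulators known for their expression in the deep layers of the mouse neocortex. They were taken by name as the rows of the ribosome footprint count table whose Ensembl identifier maps to these symbols. The set is 10 of the 22373 genes in the table. All 10 had at least 32 footprints at some stage and were among the 13484 genes tested.

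Footprints were sequenced from neocortex of CD-1 wild-type mice at the embryonic stages E12.5, E14, E15.5 and E17, named by days of gestation, and on the day of birth (P0), with 2 libraries per stage. Each library was made from a pool of brains of both sexes, after digestion of the lysate with RNase T1 and RNase A. No group carried an engineered allele or received an agent, so the groups differed by age. The total was 21378041 to 36129988 counts in 9 libraries and 7544404 counts in P0 replicate 1.

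Neurons of layers 5 and 6 are born before those of the upper layers and send their axons out of the cortex. In the standard account, Fezf2 and Bcl11b act in layer 5 neurons that project to the brainstem and spinal cord, while Tbr1 acts in layer 6 neurons that project to the thalamus. Sox5 and Bcl11a shape the choice between these fates, Foxp1 and Foxp2 are forkhead factors of maturing cortical neurons, and Zfpm2, Tle4 and Ldb2 work as cofactors that do not themselves select a DNA sequence. A footprint count reflects both the amount of an mRNA and how many ribosomes sit on it, and the matching RNA sequencing was not analysed here. In bulk tissue, fewer cells of a type and less RNA per cell cannot be told apart.

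The 10 genes were grouped by the stage with their highest mean level. The 6 genes highest at P0 were Bcl11a, Foxp1, Foxp2, Zfpm2, Tle4 and Ldb2. Of these, only Foxp1 and Ldb2 were called higher at P0 than at E15.5. The libraries of P0 and E15.5 overlapped for Foxp2 and Tle4. The other 4 genes, Bcl11b, Fezf2, Tbr1 and Sox5, were highest at E14 or E15.5. All 10 differed across the 5 stages by the limma-voom F test (adjusted p between 2.89e-06 and 0.0439), as did 63.8% of all genes tested. Levels below are CPM (counts scaled to a common library total) on library sizes scaled by the trimmed mean of M values (TMM), given for replicate 1 and then replicate 2. They are read across stages within a gene, since CPM is not divided by gene length.

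**Figure D1:**
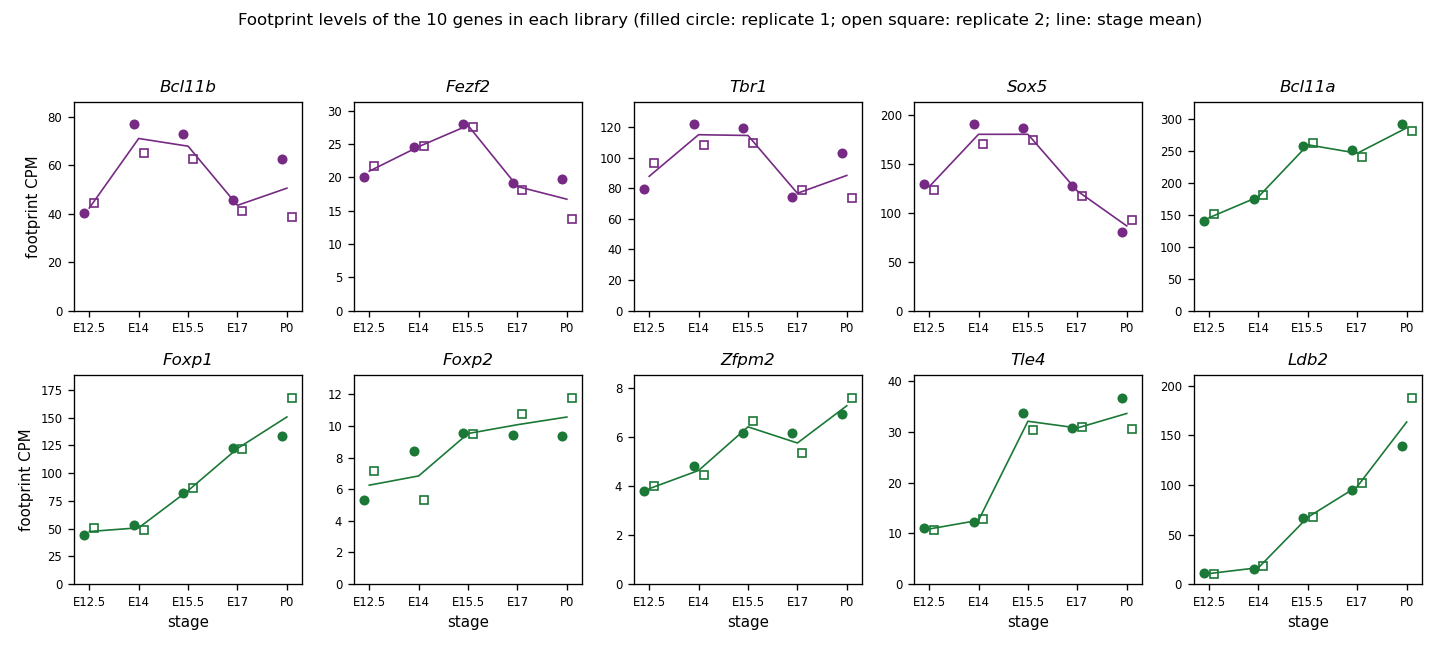
Footprint CPM (vertical axes, from 0) of each of the 10 genes at the 5 stages (horizontal axes), with filled circles for replicate 1, open squares for replicate 2 and a line through the stage means. The 4 genes in purple were highest at E14 or E15.5 and the 6 genes in green were highest at P0; Ldb2 spanned the widest range, from a mean of 10.6 CPM at E12.5 to 164 CPM at P0.

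Bcl11b (ENSMUSG00000048251), a zinc finger factor also called Ctip2 and a marker of corticospinal neurons, had 40.4 and 44.4 CPM (E12.5), then 77.0 and 65.3 (E14), 73.2 and 62.8 (E15.5), 45.7 and 41.3 (E17) and 62.5 and 38.7 (P0). The E14 and E15.5 libraries lay above all libraries of E12.5 and E17. The P0 libraries stood apart from each other, one near the E15.5 level and the other below both E17 libraries.

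Fezf2 (ENSMUSG00000021743), the zinc finger selector gene of subcerebral projection neurons, had 20.1 and 21.8 CPM (E12.5), then 24.5 and 24.7 (E14), 28.0 and 27.6 (E15.5), 19.2 and 18.0 (E17) and 19.7 and 13.7 (P0). Both E15.5 libraries were above all others, and P0 replicate 2 was the lowest. Tbr1 (ENSMUSG00000035033), a T-box factor of corticothalamic neurons, had 79.4 and 96.2 CPM (E12.5), then 122 and 108 (E14), 119 and 110 (E15.5), 74.3 and 79.1 (E17) and 103 and 74.0 (P0). Its E14 and E15.5 libraries overlapped each other and lay above all other libraries.

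Sox5 (ENSMUSG00000041540), a SoxD factor that sets the order in which corticofugal neuron types arise, had 129 and 124 CPM (E12.5), then 190 and 170 (E14), 186 and 174 (E15.5), 127 and 117 (E17) and 80.3 and 92.8 (P0). Its P0 libraries were below all others, and those of E14 and E15.5 were above all others. The replicates of P0 were in the opposite order to those of Bcl11b, Fezf2 and Tbr1.

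Bcl11a (ENSMUSG00000000861), the relative of Bcl11b also called Ctip1, had 140 and 151 CPM (E12.5), then 175 and 181 (E14), 257 and 261 (E15.5), 252 and 240 (E17) and 291 and 280 (P0). The libraries of each stage were apart from those of every other stage. Its replicates stayed close at each stage, P0 included.

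Foxp1 (ENSMUSG00000030067), a forkhead factor found in neurons of layers 3 to 6, had 43.9 and 50.7 CPM (E12.5), then 53.1 and 48.3 (E14), 82.0 and 86.4 (E15.5), 122 and 122 (E17) and 133 and 168 (P0). The E12.5 and E14 libraries overlapped, and each later stage lay above the one before. Foxp2 (ENSMUSG00000029563), the forkhead factor of layer 6 best known from an inherited speech disorder, had 5.34 and 7.18 CPM (E12.5), then 8.39 and 5.29 (E14), 9.55 and 9.50 (E15.5), 9.43 and 10.7 (E17) and 9.35 and 11.8 (P0). Its replicates at E14 differed by a log2 ratio of 0.66, and E15.5, E17 and P0 overlapped.

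Zfpm2 (ENSMUSG00000022306), a cofactor of GATA and nuclear receptor proteins also called Fog2, had 3.80 and 4.00 CPM (E12.5), then 4.82 and 4.47 (E14), 6.18 and 6.67 (E15.5), 6.16 and 5.37 (E17) and 6.96 and 7.61 (P0). The stages up to E15.5 did not overlap, and E17 lay below both neighbours. Tle4 (ENSMUSG00000024642), a Groucho corepressor of layer 6, had 11.1 and 10.6 CPM (E12.5), then 12.2 and 12.9 (E14), 33.8 and 30.5 (E15.5), 30.7 and 30.9 (E17) and 36.8 and 30.6 (P0). Its libraries formed a low pair of stages and a high group of stages with a wide gap between E14 and E15.5.

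Ldb2 (ENSMUSG00000039706), an adaptor that bridges LIM domain proteins and a marker of subcerebral neurons, had 10.8 and 10.4 CPM (E12.5), then 14.7 and 18.4 (E14), 67.1 and 67.9 (E15.5), 95.3 and 102 (E17) and 139 and 188 (P0). Each stage lay above the one before with no overlap. Across the 10 libraries, Pearson's r of log2 CPM was 0.81 to 0.97 within the 6 genes highest at P0, 0.61 to 0.94 within the 4 genes highest at E14 or E15.5, and -0.61 to 0.11 between 1 of each. These r values describe libraries that share a stage and a depth, and the grouping was made after the values were seen.

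Between E12.5 and E14, a difference was called where the limma-voom adjusted p was under 0.05 and the fold was at least 5/4. Of the 10 genes, 0 were called higher and 0 lower, beside 0.497% and 0.141% of all genes. The unadjusted p was under 0.05 for 5 genes, edgeR called 0 genes (0.63% of all genes) and DESeq2 called 3 genes higher (2.17% of all genes), which were Bcl11b, Sox5 and Ldb2. Both E14 libraries were above both E12.5 libraries for 8 genes and for 27% of all genes. The largest fitted log2 fold changes were 0.74 ± 0.21 (SE; adjusted p = 0.136) for Bcl11b, 0.64 ± 0.18 (adjusted p = 0.136) for Ldb2 and 0.51 ± 0.11 (adjusted p = 0.0733) for Sox5. The same 3 genes were called higher without either P0 library, where the share of all genes called higher was 4.54% and 4.56%.

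Between E14 and E15.5, the transition from deep-layer to upper-layer birth, Ldb2 rose 4.08-fold, Tle4 2.55-fold, Foxp1 1.66-fold, Bcl11a 1.46-fold and Zfpm2 1.38-fold. These were 5 genes called higher and 0 lower of the 10, beside 16.5% of all genes higher and 19.6% lower. The fitted log2 fold changes were 2.03 ± 0.16 for Ldb2 (limma-voom adjusted p = 0.000115), 1.35 ± 0.12 for Tle4 (adjusted p = 0.000148) and 0.73 ± 0.13 for Foxp1 (adjusted p = 0.00334). For Bcl11a it was 0.54 ± 0.09 (adjusted p = 0.00182). For Zfpm2 it was 0.47 ± 0.13 (adjusted p = 0.0212), a call lost in DESeq2 (adjusted p = 0.14) and without any 1 of the 4 libraries of these stages (adjusted p 0.0573 to 0.129).

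The 4 genes highest at E14 or E15.5 gave no call at that step with TMM. The 95% interval of the log2 fold change was -0.53 to 0.41 for Bcl11b, -0.38 to 0.37 for Tbr1, -0.25 to 0.25 for Sox5 and -0.16 to 0.51 for Fezf2. Foxp2 was at 0.54 ± 0.23 on the log2 scale (limma-voom adjusted p = 0.102), a value which went to 0.85 (adjusted p = 0.0321) without E14 replicate 1 and to 0.18 (adjusted p = 0.601) without E14 replicate 2. Scaling by total counts alone moved the median log2 fold change of all genes by 0.29 at this step, and relative to it Bcl11b stood at -0.05, Tbr1 at 0.01, Sox5 at 0.01 and Fezf2 at 0.18. Such relative values are centred much as TMM values are and are not a separate check. With total counts alone Fezf2 was called higher (0.47, limma-voom adjusted p = 0.0359), among 32.7% of all genes called higher.

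Markers of other tissues differed at the same step. Choroid plexus markers, led by Ttr, summed to 292 to 353 CPM at E12.5, 1164 to 1173 at E14 and 7.73 to 16.8 from E15.5 on. Meningeal markers, led by Dcn, summed to 64.8 to 103 CPM at E12.5 and E14 and 2.66 to 7.84 afterwards, and all 7 tested choroid plexus genes and all 7 meningeal genes were called lower at E15.5 than at E14. Markers of striatum and ganglionic eminence, where Bcl11b, Foxp1 and Foxp2 are also expressed, summed to 20.9 to 22.4 CPM (E12.5), 38.7 to 44.0 (E14), 124 to 128 (E15.5), 138 to 147 (E17) and 172 to 182 (P0). That list was led by Lhx6, which migrating cortical interneurons also express. At E15.5 against E14, 6 of its 15 tested genes were called higher and 2 lower, beside 16.5% and 19.6% of all genes. From E12.5 to P0, 10 were called higher and 1 lower, beside 30.1% and 32% of all genes. Within the list, Drd1, Drd2, Adora2a, Isl1 and Rarb, named after their values were seen, had stage means of at most 0.537 CPM. The part of these other cells in the changes of the 10 genes was not tested.

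**Figure D2:**
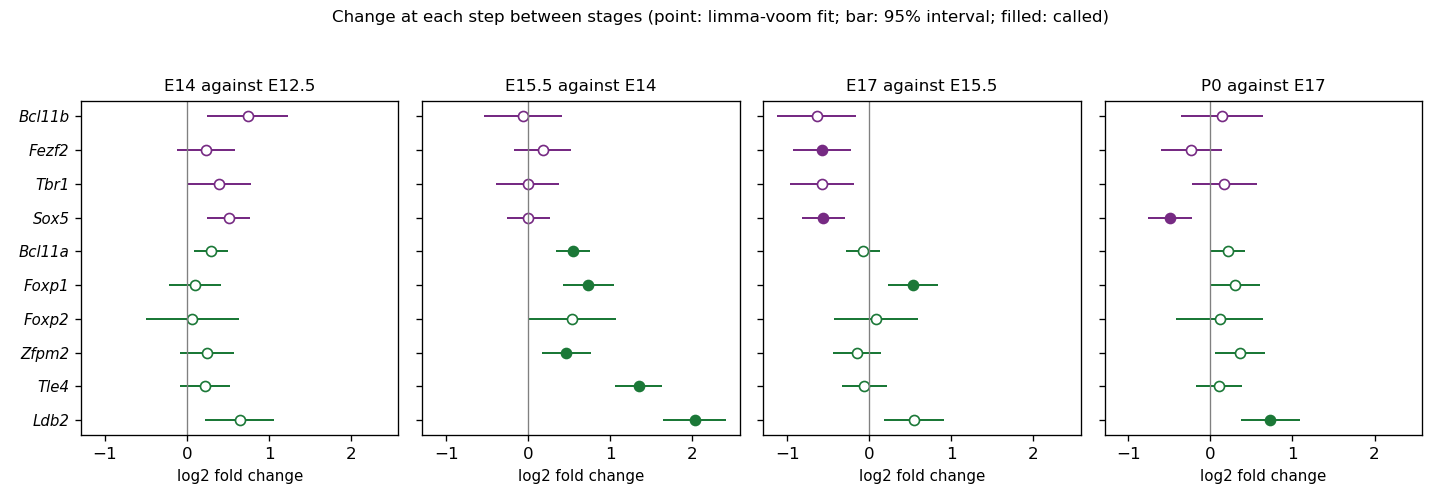
Fitted log2 fold change (horizontal axes) of each gene at the 4 steps between adjacent stages, with 95% intervals as bars and filled points where the change was called. Calls at the E14 to E15.5 step were all on the higher side, led by Ldb2 at 2.03, and Sox5 was the gene called lower at both later steps.

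Between E15.5 and E17, Fezf2 fell 1.49-fold and Sox5 fell 1.47-fold, while Foxp1 rose 1.45-fold. These were 1 gene called higher and 2 lower, beside 5.61% and 3.43% of all genes. The log2 fold changes were -0.58 ± 0.15 for Fezf2 (limma-voom adjusted p = 0.0482), -0.56 ± 0.11 for Sox5 (adjusted p = 0.021) and 0.54 ± 0.13 for Foxp1 (adjusted p = 0.0386). Bcl11b (-0.64 ± 0.21, adjusted p = 0.0943) and Tbr1 (-0.58 ± 0.16, adjusted p = 0.0654) had values of like size that missed the threshold, with both E17 libraries below both E15.5 libraries. Ldb2 missed it as well (0.54 ± 0.15, adjusted p = 0.0646).

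These calls were close to the threshold. Without any 1 of the E15.5 or E17 libraries 0 genes were called, without any 1 of the E12.5 or E14 libraries only Sox5 was called, and without either P0 library 6 genes were called, namely Foxp1 and Ldb2 higher and Bcl11b, Fezf2, Tbr1 and Sox5 lower. Over all genes, the share called in either direction went from 9.04% to 20.8% and 20.9% without a P0 library, to at most 0.133% without an E15.5 or E17 library, and to between 5.46% and 5.73% without an E12.5 or E14 library. With DESeq2 size factors and with total counts alone the split was 2 genes higher and 1 lower. Of all genes, 5.88% were called higher and 3.17% lower with DESeq2 size factors, and 6.47% and 2.64% with total counts alone.

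Between E17 and P0, Ldb2 rose 1.66-fold (log2 0.73 ± 0.15, limma-voom adjusted p = 0.0139) and Sox5 fell 1.41-fold (-0.49 ± 0.11, adjusted p = 0.0183). These were 1 gene called higher and 1 lower, beside 9.46% and 11.1% of all genes, and total counts alone gave 4 genes higher and 1 lower, beside 13.6% and 7.83% of all genes. Without either E17 library 0 genes were called (Ldb2 adjusted p 0.0593 to 0.107, Sox5 adjusted p 0.0588 to 0.141).

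The P0 replicates differed from each other more than those of any other stage. The SD of the log2 ratio between replicates, over the 4559 genes that averaged 500 counts or more, was 0.54 at P0 and 0.13 to 0.22 at the other stages. Bcl11b (0.14, 95% interval -0.34 to 0.63), Tbr1 (0.17, -0.22 to 0.55) and Fezf2 (-0.23, -0.59 to 0.12) had P0 libraries on either side of the E17 libraries. Without P0 replicate 1, Foxp1, Zfpm2 and Ldb2 were called higher and Fezf2 and Sox5 lower, which made 5 genes. Without P0 replicate 2, Bcl11b, Tbr1 and Ldb2 were called higher and Sox5 lower, which made 4 genes. The share of all genes called rose from 20.5% to 32% and 32.4% in these fits.

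From E12.5 to E15.5, over the birth of the deep layers, 7 genes were called higher and 0 lower, beside 22.2% and 24% of all genes. Every one of the 10 genes had both E15.5 libraries above both E12.5 libraries, as did 39.7% of all genes. The rises ranged from 0.51 ± 0.11 for Sox5 (limma-voom adjusted p = 0.00545) to 2.67 ± 0.17 for Ldb2 (adjusted p = 1.77e-05), a 6.37-fold difference. Tle4 rose 2.96-fold, Bcl11a 1.79-fold, Foxp1 1.78-fold, Zfpm2 1.63-fold and Bcl11b 1.60-fold. Fezf2 (0.41 ± 0.15, adjusted p = 0.0523), Tbr1 (0.39 ± 0.16, adjusted p = 0.0867) and Foxp2 (0.60 ± 0.23, adjusted p = 0.0657) missed the threshold. The Bcl11b call was lost without any 1 of the 4 libraries of these stages (adjusted p 0.0575 to 0.15), and the Sox5 call without E15.5 replicate 1 (adjusted p = 0.0502).

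From E15.5 to P0, 2 genes were called higher and 2 lower, beside 17.1% and 17% of all genes. Ldb2 rose 2.41-fold (1.27 ± 0.15, limma-voom adjusted p = 0.000643) and Foxp1 1.79-fold (0.84 ± 0.13, adjusted p = 0.00185). Sox5 fell 2.07-fold (-1.05 ± 0.11, adjusted p = 0.000348) and Fezf2 fell 1.75-fold (-0.81 ± 0.15, adjusted p = 0.0049). Bcl11b (-0.50 ± 0.21, adjusted p = 0.0973) and Tbr1 (-0.41 ± 0.17, adjusted p = 0.088) were lower in both P0 libraries than in both E15.5 libraries but were not called. Both were called without P0 replicate 1 (-0.81 and -0.63, adjusted p = 0.0024 and 0.00558), and without P0 replicate 2 they were at -0.12 and -0.15 (adjusted p = 0.564 and 0.407). The fall of Fezf2 was -0.49 without P0 replicate 2, still called, and was not called in the fit of only those stages (adjusted p = 0.078). Tle4 had an interval of -0.22 to 0.31 over the same span.

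Over the whole series from E12.5 to P0, 6 genes were called higher and 1 lower, beside 30.1% and 32% of all genes. Ldb2 rose 15.4-fold (3.94 ± 0.17, limma-voom adjusted p = 8.48e-07), Foxp1 3.18-fold (1.67 ± 0.13, adjusted p = 1.43e-05) and Tle4 3.05-fold (1.61 ± 0.12, adjusted p = 1.24e-05). Bcl11a rose 1.97-fold and Zfpm2 1.89-fold. Foxp2 rose 1.73-fold (adjusted p = 0.0196), a call lost without E12.5 replicate 1 (adjusted p = 0.11), without P0 replicate 2 (adjusted p = 0.144) and with sample quality weights (adjusted p = 0.141).

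Sox5 was the gene called lower over that span, by 1.46-fold (-0.54 ± 0.11, limma-voom adjusted p = 0.00296). For Bcl11b (0.18, 95% interval -0.31 to 0.67), Tbr1 (-0.03, -0.41 to 0.36) and Fezf2 (-0.40, -0.76 to -0.04, adjusted p = 0.0518) the first and last stages were not called different. Without P0 replicate 1 Fezf2 was called lower (-0.61, adjusted p = 0.000713), without P0 replicate 2 it was at -0.09 (adjusted p = 0.537), and without P0 replicate 2 Bcl11b was called higher (0.56, adjusted p = 0.013). Total counts alone moved the median log2 fold change of all genes to 0.51 over this span. With that scaling 8 genes were called higher and 0 lower, beside 47.8% and 18.6% of all genes. Sox5 was then at -0.01 (limma-voom adjusted p = 0.918) and was not called. Relative to that median, Sox5 stood at -0.53, Fezf2 at -0.39, Tbr1 at -0.01 and Bcl11b at 0.19. Such relative values are centred much as TMM values are, so they are not a separate check.

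Counts of a pair of genes within a library need no scaling, and were compared for 3 pairs as values without a test. The Bcl11a to Bcl11b ratio was 3.46 and 3.39 (E12.5), then 2.27 and 2.77 (E14), 3.52 and 4.16 (E15.5), 5.51 and 5.82 (E17) and 4.66 and 7.24 (P0). All libraries of E17 and P0 lay above those of the earlier stages. Because transcript length enters a ratio of counts equally in every library, only its course across stages is read.

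The Foxp1 to Foxp2 ratio was 8.24 and 7.06 (E12.5), then 6.32 and 9.13 (E14), 8.59 and 9.09 (E15.5), 13.0 and 11.3 (E17) and 14.2 and 14.2 (P0). E14 overlapped both E12.5 and E15.5, and E17 and P0 lay above all earlier stages. The Fezf2 to Tbr1 ratio, between a subcerebral and a corticothalamic factor, stayed between 0.201 and 0.258 in the 8 embryonic libraries and was 0.191 and 0.186 at P0. It was lower in both P0 libraries than in any other.

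**Figure D3:**
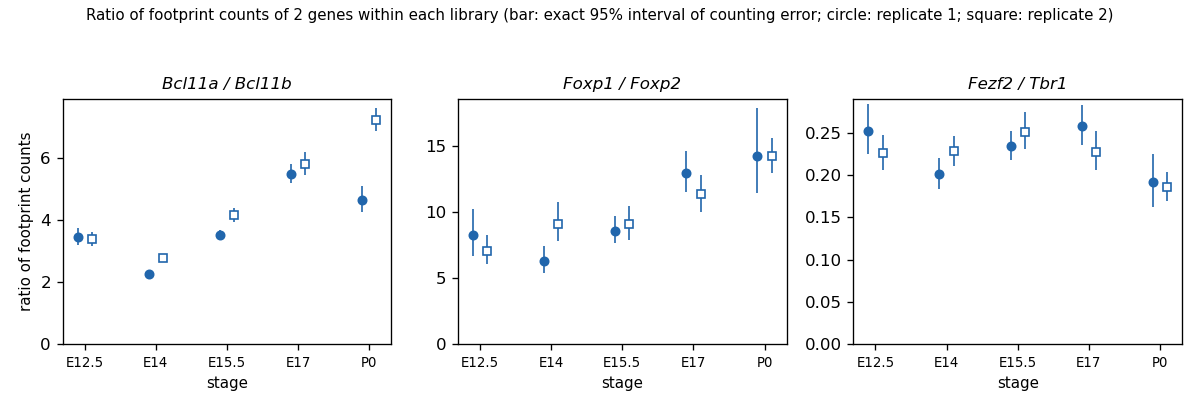
Ratio of footprint counts of 2 genes within a library (vertical axes, from 0) by stage, with circles for replicate 1, squares for replicate 2 and bars for the exact 95% interval of counting error. The Bcl11a to Bcl11b ratio stood at or below 4.16 in the libraries up to E15.5 and at or above 4.66 in the later ones, and the Fezf2 to Tbr1 ratio stayed between 0.186 and 0.258 throughout.

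Other genes known from deep-layer neurons were described from a list of 17 genes, 16 of them tested. From E12.5 to P0, 12 were called higher and 2 lower, beside 30.1% and 32% of all genes. The median log2 fold change was 1.32, beside -0.01 for all genes. Hs3st4 (4.14 ± 0.86), Ntsr1 (4.05 ± 0.39) and Syt6 (3.93 ± 0.25), markers of layer 6 corticothalamic neurons, rose most, and the layer 5 factor Etv1 rose by 1.78 ± 0.14. The value of Hs3st4 rests on 1 and 3 counts in the E12.5 libraries, and its P0 libraries stood at 3.15 and 1.62 CPM. Crym rose by 1.93 ± 0.20. Of the corticospinal markers, Igfbp4 and Diaph3 fell by 1.78 and 0.68, while Crim1 (1.19 ± 0.27), S100a10 (0.81 ± 0.21) and Cdh13 (0.59 ± 0.20) rose. At E15.5 against E14, 8 of the 16 were called higher and 1 lower (median 0.73), beside 16.5% and 19.6% of all genes. Ntsr1 was at 2.52 ± 0.32 (limma-voom adjusted p = 0.000697). The median was 0.47 without E14 replicate 2.

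The list of 8 upper-layer regulators gave 6 genes higher and 1 lower at E15.5 against E14, beside 16.5% and 19.6% of all genes. Its median was 1.2, where the 10 deep-layer regulators had a median of 0.50. Rorb, the layer 4 factor, rose by 2.10 ± 0.15, and the POU factors Pou3f1 and Pou3f2 rose by 1.67 ± 0.24 and 1.52. Lhx2, a LIM homeodomain factor also of progenitors, fell by 0.80. From E15.5 to P0 the medians were 0.10 for the upper-layer and 0.09 for the deep-layer regulators. The difference between the lists was not tested.

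General neuronal genes gave 11 of 12 called higher at E15.5 against E14 (median 1.2) and 11 higher and 1 lower from E12.5 to P0 (median 2.34), led by the neurofilament gene Nefl and the synaptic gene Snap25. Of the 6 genes highest at P0, Ldb2 lay above both medians. At E15.5 against E14, 1 of 12 progenitor genes was called higher and 10 lower (median -1.0). From E12.5 to P0, 2 were called higher and 10 lower (median -2.68). The falls over the whole span were led by Neurog2, the proneural factor of the dorsal telencephalon, and Top2a, a gene of dividing cells. Summed over the list, mean levels were 2378 CPM (E12.5), 2387 (E14), 2306 (E15.5), 2488 (E17) and 1733 (P0). Of all genes, 16.5% were called higher and 19.6% lower at E15.5 against E14, and 30.1% and 32% from E12.5 to P0.

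Relatives of the 10 genes took other courses. Of 14 relatives, 9 were tested and 5 had too few footprints, namely Foxp3, Tle6, Fezf1, Zfpm1 and Tbx21. From E12.5 to P0, 2 were called higher and 5 lower, with a median of -0.33, beside 30.1% and 32% of all genes called. Eomes, the T-box relative of Tbr1 that marks intermediate progenitors, fell by 3.45 on the log2 scale. The SoxD relatives of Sox5 fell as well, Sox6 by 1.38 and Sox13 by 2.31. Ldb1, the relative of Ldb2, had -0.28 ± 0.08 and was not called, against 3.94 ± 0.17 for Ldb2.

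The Groucho relatives of Tle4 fell little or rose, with Tle1 at -0.33 ± 0.12 and Tle3 at -0.45 ± 0.10, both called lower, and Tle2 at 1.90 ± 0.37 and Aes, a short Groucho protein, at 0.39 ± 0.09, both called higher. Foxp4, the third brain forkhead factor of the family, was at 0.13 ± 0.17 and was not called. How reads shared by near-identical copies were assigned, and its part in these differences, was not tested.

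Partners of these regulators were described from 2 lists. Of 16 genes of the NuRD chromatin remodeller, which binds Bcl11 proteins, and of the CtBP corepressors, which bind SoxD and Fog proteins, 3 were called higher and 11 lower from E12.5 to P0 (median -0.59). Of all genes, 30.1% were called higher and 32% lower over that span. Chd5, the neuronal NuRD helicase, rose by 4.44 ± 0.22, with Chd3 at 0.79 ± 0.10 and Mta3 at 0.74 ± 0.09. Hdac1 fell by 2.21, Ctbp2 by 1.53 and Gatad2a by 1.16.

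Of 14 LIM domain and Ssbp genes, whose proteins join Ldb complexes, 12 were tested. From E12.5 to P0, 5 were called higher and 5 lower, beside 30.1% and 32% of all genes. The median was 0.20 (0.019 without P0 replicate 1, 0.12 without E12.5 replicate 1 and 0.40 without P0 replicate 2). Lhx6 (3.20 ± 0.13), Lmo4 (2.96 ± 0.15) and Ssbp2 (2.0 ± 0.15) rose most, and Lhx9, Lhx2 and Lhx1 fell by 5.60, 2.01 and 1.54. Lmo4 itself rose at each step from E14 on, as Ldb2 did in its mean level.

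Genes known as targets of the 10 regulators gave 2 higher and 1 lower of 7 tested from E12.5 to P0, a count of 3 that became 5 without P0 replicate 2 and 7 with total counts alone. Of all genes, 30.1% were called higher and 32% lower from E12.5 to P0. Mef2c, repressed by Foxp2 in striatum, rose by 4.61 ± 0.16, and the glutamate receptor gene Grin2b, a Tbr1 target, rose by 3.78 ± 0.28. Cntnap2, a Foxp2 target, fell by 1.92. Auts2, a Tbr1 target, had mean levels of 33.7 CPM (E12.5), 47.7 (E14), 49.8 (E15.5), 35.5 (E17) and 29.9 (P0). It fell from E15.5 to P0 by 0.76 (limma-voom adjusted p = 0.00314), the span in which Tbr1 was at -0.41 ± 0.17 and not called. Of the 7 tested targets, 2 were called higher and 1 lower over that span, beside 17.1% and 17% of all genes. Reln, of the same list, had means of 14.7 CPM at E15.5 and 16.6 at P0. Whether these genes follow Tbr1 was not tested.

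**Figure D4:**
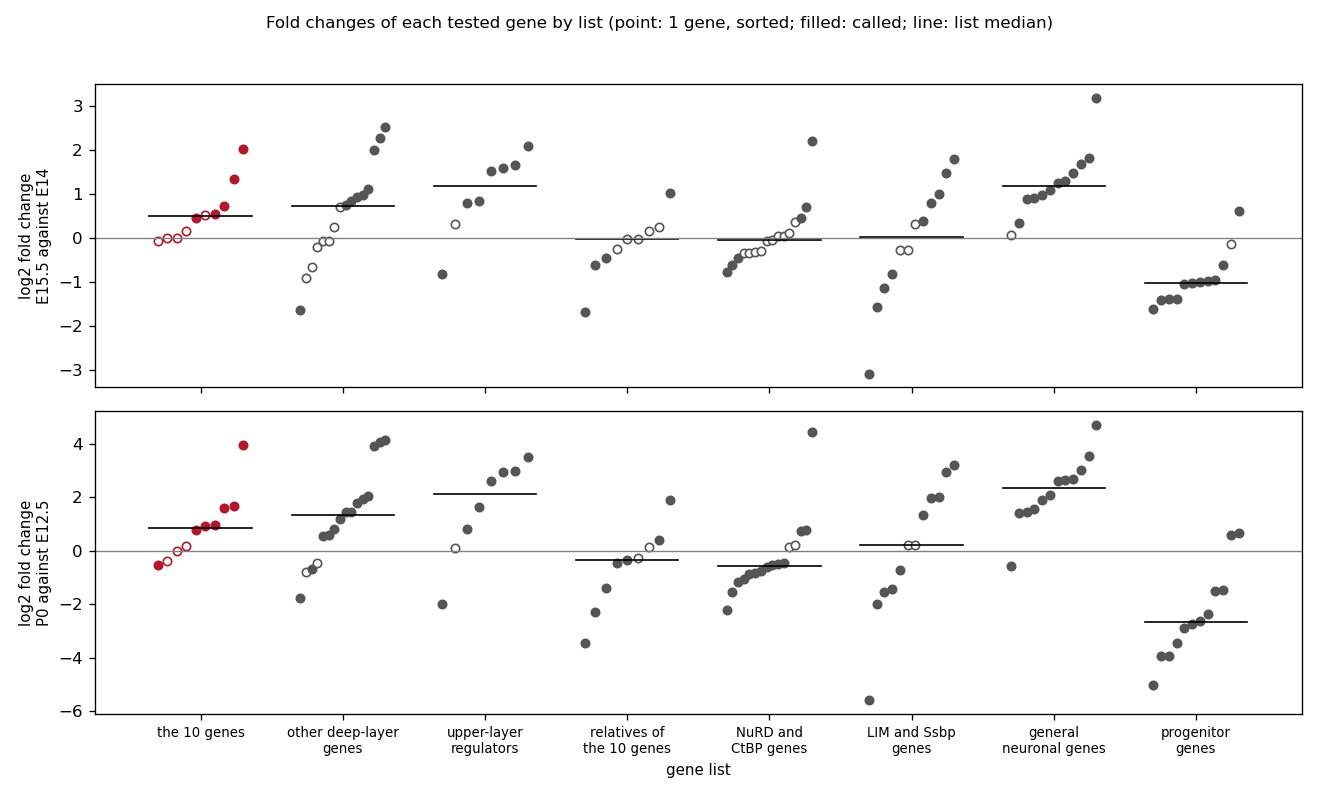
Fitted log2 fold change (vertical axes) of each tested gene in 8 lists (horizontal axis), sorted within a list, at E15.5 against E14 and at P0 against E12.5, with filled points where called and a line at the list median. The 10 deep-layer regulators, in red, had medians of 0.50 and 0.85, below those of upper-layer regulators (1.2 and 2.12) and general neuronal genes (1.2 and 2.34) and above those of progenitor genes (-1.0 and -2.68).

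The genes with the course most like 4 of the regulators, by Pearson's r of log2 CPM over the 10 libraries among 9205 genes, are given as a description. For Bcl11b they were Sik1 (r = 0.97), Prex1 (0.94) and Smox (0.94), and for Tbr1 they were Sik1 (0.95), Rai1 (0.93) and Smox (0.92). For Fezf2 they were Kat8 (0.96), Lipe (0.94) and Arhgef2 (0.94). For Foxp2 they were Smg9 (0.95), Slc25a36 (0.95) and Pard6a (0.93).

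The 250 bases before the RefSeq start (GRCm38.p6) were available for 10 starts of 7 of the genes, all but Foxp2, Zfpm2 and Ldb2. They were searched on both strands for the letters of 3 protein families to which these regulators belong and of 3 general promoter boxes, none of which is contained in another. The SOX letters AACAAT were in 3 of the 10 windows and in 9.42% of 32851 windows of all genes, the forkhead letters TAAACA in 4 and 12%, and the T-box letters AGGTGT in 0 and 11.8%. The GC box letters GGGCGG were in 7 of the 10 windows and 32.7% of all windows, the CCAAT box letters CCAAT in 3 and 33.8%, and the TATA box letters TATAAA in 0 and 12.4%. Foxp1 and Tle4 had more than 1 start, so windows are not separate genes. By gene, SOX letters were before 3 of the 7, forkhead letters before 2 (Foxp1 and Tbr1), GC box letters before 5 and CCAAT box letters before 3. No share by gene was computed for all genes. The SOX matches and the forkhead match before Tbr1 are shown as examples, with the matched letters in capitals and each sequence 5′ to 3′ on the strand of its gene. A link between these letters and the footprint levels was not tested.
Tbr1, SOX letters, chr2:61804345-61804374, plus strand: accccccaagccAACAATaaaatcatcccc
Tbr1, forkhead letters, chr2:61804235-61804264, plus strand: ggggtaaggaacTGTTTAgtaaattgcaca
Foxp1, SOX letters, chr6:99266726-99266755, minus strand: taattaattgcaATTGTTattgtagcaaga
Tle4, SOX letters, chr19:14597267-14597296, minus strand: agccattttcttATTGTTgtctctgaagcc
The first starts 96 bases before the Tbr1 start and the second 206 bases before it, counted from the first capital letter. Capitals that differ from the letters searched are the reverse complement. A match is a description of these windows and does not show binding.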

How the data were processed

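Ribosome footprints were measured in 10 neocortex libraries, 2 at each of 5 stages, and samples were grouped by the stage in their labels. The authors deposited 1 table of raw footprint counts per gene. Per the methods of the study, reads were trimmed of adapters, duplicate sequences (molecular identifiers included) were dropped, small structural RNA was cleared with Bowtie 2, and the rest was aligned with STAR to GENCODE M12, many-place reads included; the labels name STAR 2.7.0. The methods name DeepShape-prime and tximport for gene-level values, but whether they made this table is not given in the sources used here. Of 22373 identifiers, 22274 matched a symbol. Symbols, the 10 genes, gene lists and comparisons were chosen with earlier results of these data known. A gene of the upper-layer list is not reported here and was left out of its counts and median.

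A gene was kept where the libraries of 1 stage together held 32 footprints or more (13484 genes). Counts were scaled by TMM and fitted over all stages with limma-voom (R 4.3.3, limma 3.58.1, edgeR 4.0.16), with Benjamini-Hochberg adjustment over all genes tested; calls needed an adjusted p under 0.05 and a fold of 1.25, the thresholds of the study. All tests were two-sided. Replicates were separate pools of brains. CPM, counting intervals and list sums use the same libraries. The intervals cover counting error only. Named genes were all 10 genes, any of the lists of relatives, targets, upper-layer and deep-layer genes, and from other lists up to 3 called rises and falls and the most abundant gene. From the lists of other cell types, genes at 0 or at low levels were named as well. Alternatives were DESeq2 1.42.0, edgeR quasi-likelihood, other scalings and filters, sample quality weights, a replicate block, fits of 2 stages and leaving out each library. Scripts were tested on simulated data.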

Additional observations from a re-analysis of the deposited data

How the results depend on the processing

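There were 2 libraries per stage, all stages shared 1 estimate of spread, and the P0 replicates, 1 of them shallow, differed most from each other. No call among the 10 genes changed direction under any alternative. Genes of the other lists were not followed 1 by 1 under the alternatives. Of 1260 values under alternatives, for 63 fitted changes of the 10 genes, 1114 kept their direction and side of the threshold. Of the rest, 53 lost a call, 64 gained one and 29 changed sign. Left out of these values were Foxp1 and Foxp2 at E14 against E12.5 and Foxp2 at P0 against E15.5. Foxp2 and Tle4 at E17 against E15.5 and at P0 against E17 were left out too. None of these was called in the main fit, and their sign changes are not counted.

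The counts of genes called stayed within 1.5 times for E15.5 against E14 (4 to 7), E15.5 against E12.5 (5 to 10), P0 against E15.5 (3 to 6), P0 against E12.5 (6 to 8) and the F test (7 to 10). For E14 against E12.5, where 0 genes and 0.638% of all genes were called, DESeq2 and sample quality weights each called 3. Of all genes they called 2.88% and 4.86%. Leaving out a library also changed the count in some fits. For E17 against E15.5, 3 genes and 9.04% of all genes were called. Leaving out histone genes gave 2 (8.98% of all genes), no filter 1 (3.99%), edgeR 1 (7.28%) and the replicate block 1 (5.90%). DESeq2 gave 5 (7.59%), sample quality weights 6 (27.6%) and the fit of only those stages 6 (23.8%). The count also changed when a library was left out. For P0 against E17, 2 genes and 20.5% of all genes were called. Total counts gave 5 (21.4% of all genes) and sample quality weights 0 (5.18%). The fit of only those stages called 0 of the 10 and 0 of all genes. Here too the count changed in some fits when a library was left out.

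Replicate numbers were not taken to pair the samples: deviations of same-numbered libraries correlated between -0.63 and 0.43, and were over 0.1 in 5 of 10 pairs of stages, among them the 3 pairs of E15.5, E17 and P0 (0.21 to 0.43). The replicate block changed the count of genes called by over 1.5 times at E17 against E15.5, to 1 (Sox5). Over all genes it called 5.90%, beside 9.04% in the main fit. Fezf2 and Foxp1 were then at limma-voom adjusted p 0.0683 and 0.054.

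Some values changed sign; ranges are those over leaving out 1 library. For E15.5 against E14, Bcl11b was 0.23 with total counts (range -0.18 to 0.056). Tbr1 was 0.29 with total counts, 0.016 without histone genes, 0.0078 without the filter and 0.0023 with quality weights (-0.090 to 0.081). Sox5 was -0.014 with DESeq2 size factors, -0.041 with a mean of at least 100 counts and -0.016 in DESeq2 (-0.081 to 0.084). For P0 against E17 the ranges were -0.17 to 0.52 for Bcl11b, -0.44 to 0.083 for Fezf2 and -0.052 to 0.43 for Tbr1, and for P0 against E15.5 -0.073 to 0.19 for Tle4. For P0 against E12.5, Bcl11b ranged from -0.13 to 0.56 and Fezf2 went from -0.40 to 0.12 with total counts. Tbr1 was 0.00024 with DESeq2 size factors, 0.50 with total counts, 0.0029 in edgeR, 0.035 in DESeq2, 0.056 with quality weights and 0.0040 in the fit of only those stages (-0.25 to 0.23). List medians changed sign with total counts, to 0.28 for relatives and 0.25 for NuRD and CtBP genes at E15.5 against E14 and from -0.33 to 0.19 for relatives at P0 against E12.5. At E15.5 against E14 the range was -0.096 to 0.0082 for relatives and -0.012 to 0.083 for LIM and Ssbp genes. The cause was not tested.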

Other observations

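Other early neurons of the cortex express some of the same regulators, Tbr1 among them, and their markers moved unevenly. Cajal-Retzius markers, the earliest layer 1 neurons, summed to 59.0 to 61.3 CPM at E12.5 and 43.6 to 44.2 at P0. From E12.5 to P0, 5 of 7 were called lower and 1 higher, beside 32% of all genes lower and 30.1% higher. Ebf2 was at -4.50, Ebf3 at -2.49 and Lhx1 at -1.54, while Calb2, a gene of interneurons too, rose by 0.96. Subplate markers summed to 67.2 to 85.3 CPM at E12.5, 55.5 to 63.6 in the libraries between and 85.5 to 89.0 at P0. Of 5 tested, 2 were called higher and 2 lower from E12.5 to P0, beside 30.1% and 32% of all genes. Nr4a2, also a gene of deep-layer and claustral neurons, rose by 2.80, and Lpar1 and Nxph4 fell by 3.52 and 3.29. Cplx3 was at 0 counts in both E12.5 libraries and had a mean of 5.35 CPM at P0.

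Red blood cell markers, led by the globin genes, summed to 10041 to 11606 CPM at E12.5 and E14, 6905 to 7421 at E15.5 and E17 and 1439 to 1862 at P0. Their part in the values of the 10 genes was not tested.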
